A study of Homo sapiens with 2 samples.

Results

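CAL-27, an established human line from a tongue squamous cell carcinoma, was grown as spheres, and chromatin recovered with a TCF4 antibody was sequenced in 1 library. A second library from the same sphere cells was made with an IgG antibody as the control and was not analysed here. The labels give no other treatment, genotype or time, and the 2 samples are named by their antibody. The regions described here are the remote peaks of the TCF4 library. These are autosomal peaks whose summit, the base with the most fragments, lay over 100 kb from every end of a protein-coding gene record of RefSeq on hg38. The rule selected 3581 of 26351 autosomal peaks, which is 13.6% (Wilson 95% interval 13.2 to 14.0%), out of 26642 peaks on all chromosomes. Their median distance to a protein-coding gene end was 239 kb, with quartiles of 147 and 458 kb, and the farthest lay 4894 kb away. They covered 627 kb in all. The rule measured distance to gene ends and not to gene bodies, and 913 of the 3581 summits (25.5%) lay inside a protein-coding gene long enough to hold such a position.

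Sequence far from genes is where distal enhancers, non-coding RNA genes and repeat arrays are found, and an enhancer there can act on a gene across a long distance by looping. The name TCF4 is shared by the E protein TCF4, a basic helix-loop-helix factor that pairs with tissue-specific partners on E-box sites, and by TCF7L2, which binds DNA with beta-catenin at the end of the Wnt pathway. Which protein the antibody recognises is not in the labels, so letters of both kinds of site are given below.

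Each peak carries the authors' fold enrichment, which sets the fragments at the summit against the peak caller's local background, and the caller's −log10 q. The number of fragments and the background, in fragments, were solved from each peak's fold and p-value. With 1 library there is no replicate check and no test between antibodies, and binding of TCF4 was not separated from signal that another antibody would also give. Intervals cover counting error only, and sequenced fragments without molecular identifiers need not be independent molecules.

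The sequences shown first are promoters of long non-coding RNA (lncRNA) genes, because these were the remote sites at which a summit sat on an annotated transcription start. The 5 shown had the highest fold of the remote lncRNA genes with a remote summit within 1 kb of the start, under the naming rule given with the processing. Each runs 5′ to 3′ on the strand of the gene over 300 bases, with 250 before the start and 50 after it, from RefSeq on GRCh38.p14. Capitals mark E-box letters, CANNTG, a pattern that reads the same on both strands.
LINC01271 (chr20:50321293-50321592, minus strand): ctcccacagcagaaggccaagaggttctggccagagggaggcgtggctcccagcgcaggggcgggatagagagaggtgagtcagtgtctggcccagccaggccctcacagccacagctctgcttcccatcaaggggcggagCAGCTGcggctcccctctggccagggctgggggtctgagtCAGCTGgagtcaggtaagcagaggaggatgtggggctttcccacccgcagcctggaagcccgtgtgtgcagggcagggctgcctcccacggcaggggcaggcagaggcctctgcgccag
LINC01937 (chr2:238719739-238720038, plus strand): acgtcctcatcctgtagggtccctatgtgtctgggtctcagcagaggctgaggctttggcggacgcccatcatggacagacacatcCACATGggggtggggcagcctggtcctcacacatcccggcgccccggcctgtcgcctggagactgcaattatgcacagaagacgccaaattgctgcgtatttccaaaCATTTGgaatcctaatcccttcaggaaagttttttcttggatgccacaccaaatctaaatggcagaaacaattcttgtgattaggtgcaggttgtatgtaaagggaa
DLGAP1-AS6 (chr18:3652780-3653079, plus strand): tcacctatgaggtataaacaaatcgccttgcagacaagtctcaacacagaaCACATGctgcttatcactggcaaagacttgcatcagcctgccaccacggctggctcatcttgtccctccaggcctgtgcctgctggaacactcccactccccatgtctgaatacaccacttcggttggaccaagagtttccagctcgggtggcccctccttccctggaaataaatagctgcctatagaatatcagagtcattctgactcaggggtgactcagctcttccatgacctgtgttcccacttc
LOC107986997 (chr9:40991782-40992081, minus strand): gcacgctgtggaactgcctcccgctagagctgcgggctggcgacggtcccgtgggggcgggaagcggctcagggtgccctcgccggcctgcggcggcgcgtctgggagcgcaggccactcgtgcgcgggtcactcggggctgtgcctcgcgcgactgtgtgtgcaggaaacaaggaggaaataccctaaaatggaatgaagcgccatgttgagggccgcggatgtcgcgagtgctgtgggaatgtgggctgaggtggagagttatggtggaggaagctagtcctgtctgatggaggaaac
LINC01508 (chr9:90433440-90433739, minus strand): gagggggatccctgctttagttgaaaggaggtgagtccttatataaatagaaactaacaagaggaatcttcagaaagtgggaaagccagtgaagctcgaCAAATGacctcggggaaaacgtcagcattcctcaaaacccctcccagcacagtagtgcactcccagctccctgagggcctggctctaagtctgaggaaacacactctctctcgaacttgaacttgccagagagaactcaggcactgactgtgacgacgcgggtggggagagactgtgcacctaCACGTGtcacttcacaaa

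The LINC01271 promoter lay wholly under its peak. The summit of that peak was 2 bp from the gene's start, with 42 fragments (exact Poisson interval 30.3 to 56.8) and a fold of 12.8. That summit was 129 kb from the nearest end of CEBPB, which encodes a basic leucine zipper factor. The LINC01937 peak had 25 fragments and a fold of 12.4, its summit was 433 bp inside the gene, and the peak did not overlap the promoter window. This summit was 128 kb from TWIST2, a class II basic helix-loop-helix factor. The DLGAP1-AS6 peak had 19 fragments, a fold of 11.3 and a summit 126 bp before the start. The peaks at LOC107986997 and LINC01508 had 12 and 15 fragments and folds of 8.81 and 8.75, with summits 181 and 115 bp before the start. Of these 5 promoters 4 held CANNTG and the LOC107986997 promoter held none, where 68.9% of all autosomal promoters hold it.

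A further promoter was chosen after its values were seen, because its summit lies 468 kb from SOX2, a stem cell and squamous lineage factor. Its E-box letters are again in capitals, and they occur 4 times.
LOC105374243 (chr3:182182713-182183012, minus strand): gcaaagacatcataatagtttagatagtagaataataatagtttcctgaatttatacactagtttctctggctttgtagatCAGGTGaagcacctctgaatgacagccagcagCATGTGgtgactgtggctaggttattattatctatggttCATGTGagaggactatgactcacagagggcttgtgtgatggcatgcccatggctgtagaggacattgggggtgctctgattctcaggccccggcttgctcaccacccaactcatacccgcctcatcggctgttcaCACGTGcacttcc
The peak there had a fold of 7.68 from 12 fragments, and its summit was 11 bp inside the start of the lncRNA gene LOC105374243.

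Mature miRNAs within 1 kb of a remote summit are shown because they are the remaining short products with a known sequence beside remote peaks. There were 8 from 7 genes, written 5′ to 3′ as RNA with the seed, bases 2 to 8, in capitals.
hsa-miR-5087: gGGUUUGUagcuuugcuggcaug
hsa-miR-1202: gUGCCAGCugcagugggggag
hsa-miR-4291: uUCAGCAGgaacagcu
hsa-miR-625-5p: aGGGGGAAaguucuauagucc
hsa-miR-625-3p: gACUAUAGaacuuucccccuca
hsa-miR-4537: uGAGCCGAgcugagcuuagcug
hsa-miR-9901: cGGUCGCCgcgguucgccgcc
hsa-miR-663a: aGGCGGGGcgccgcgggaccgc
No pair among them shared a seed. The summit nearest to a mature sequence was 10 bp from hsa-miR-9901, with 11 fragments and a fold of 5.39. The next was 48 bp from hsa-miR-4291, with 10 fragments and a fold of 5.01. The summits beside the other 6 lay 296 to 525 bp away, and their folds were between 3.73 and 7.51.

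Remote peaks were narrower than the rest of the list and held fewer fragments, while their fold was only slightly lower. Their median fold was 4.86, against 5.16 in the 22770 other autosomal peaks, a ratio of 0.941 (interval of the remote median over the other median, 0.924 to 0.955). The median number of fragments at the summit was 7 in remote peaks and 10 in other peaks. The median local background was 0.628 fragments in remote peaks and 1.03 fragments in other peaks, a ratio of 0.610. The median width was 147 bp in remote peaks and 182 bp in other peaks. For 7 fragments the exact Poisson interval is 2.81 to 14.4, which leaves the height of most single remote peaks imprecise.

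These differences had the same direction on most chromosomes. Median width, fragments and background were lower in remote peaks than in other peaks on 22 of 22 autosomes, and median fold was lower on 19 of 22. The fold difference was nearly gone when remote peaks were set against the 14320 other peaks farther than 1 kb from a protein-coding gene end, whose median fold was 4.87, a ratio of 0.997. In that comparison remote peaks still had fewer fragments, with medians of 7 in remote and 9 in the other peaks. Many remote peaks share a single value, since 271 of them had 6 fragments over the lowest background in the file, 0.475 fragments, which gives a fold of 4.75.

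A smaller share of remote peaks than of all other autosomal peaks passed stricter thresholds. A −log10 q of at least 5 was reached by 855 remote peaks (23.9%, Wilson interval 22.5 to 25.3%), against 9950 other peaks (43.7%), and 41.0% of all autosomal peaks passed it. At a −log10 q of at least 10 there were 241 remote peaks (6.73%) and 4052 other peaks (17.8%), with 16.3% of all autosomal peaks. A fold of 10 or more was found in 134 remote peaks (3.74%) and in 1363 other peaks (5.99%), with 5.68% of all autosomal peaks. For that fold the share was 3.51% in other peaks off protein-coding gene ends and 3.38% in peaks at 10 to 100 kb. Over all remote peaks it was no smaller than in these. This changed when peaks within 1 Mb of a stretch of over 1 Mb without any gene record were left out. The share was then 1.79% in remote peaks, against 3.54% in peaks at 10 to 50 kb and 2.53% at 50 to 100 kb. Of the remote peaks 1971 (55.0%) rested on 7 fragments or fewer, against 24.2% of other peaks and 28.4% of all autosomal peaks. The lowest background was found at 834 remote peaks (23.3%) and at 6.88% of other peaks, with 9.11% over all autosomal peaks.

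Peaks on either side of the 100 kb threshold overlapped in fold. The 3 peaks just inside lay 100.08, 100.15 and 100.22 kb from a gene end and had folds of 4.21, 5.17 and 4.75. The 3 just outside lay 99.899, 99.875 and 99.873 kb away and had folds of 4.75, 5.42 and 8.48. Both sets include a peak of 6 fragments over the lowest background.

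Summits were sparse in remote territory, the 1006.5 Mb of autosomal sequence over 100 kb from protein-coding gene ends, which is 37.3% of the sequence counted. Stretches of over 1 Mb without any gene record, 29 in number and 172 Mb in all, were left out of it. They were taken from gene records alone. Unsequenced gaps of the assembly were not marked, so the stretches and the territory may both include some. Remote territory held 3441 summits, or 3.42 per Mb (exact Poisson interval 3.31 to 3.54), against 13.4 per Mb in the 1694.7 Mb closer to genes, a ratio of 0.255 (0.246 to 0.264). Density fell with distance from the nearest protein-coding gene end. It was 122 per Mb within 1 kb, 12.8 at 1 to 10 kb, 8.22 at 10 to 50 kb, 5.59 at 50 to 100 kb, 4.03 at 100 to 200 kb, 3.20 at 200 to 500 kb and 2.76 at 500 to 1000 kb. Beyond 1000 kb it was 3.06 per Mb (2.64 to 3.53), and its interval overlapped that of the bin before, 2.52 to 3.01. The median background fell alongside, with 0.662, 0.618, 0.584 and 0.555 fragments over the 4 remote bins, while the median number of fragments was 7 in each of them.

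**Figure D1:**
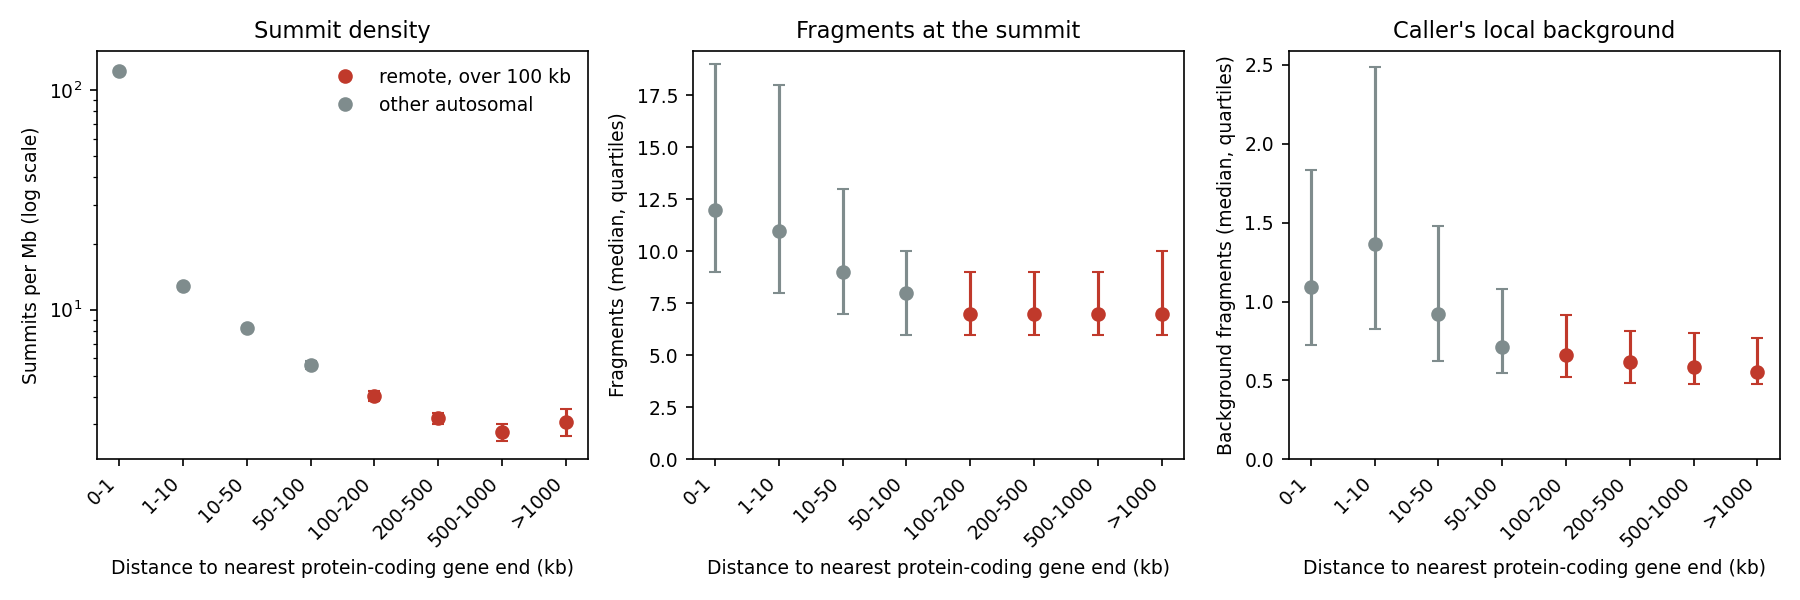
Density of summits per Mb on a log axis with exact Poisson 95% intervals (left), median fragments at the summit (middle) and median local background in fragments (right), by distance in kb to the nearest protein-coding gene end, with bars from the lower to the upper quartile in the last 2 panels. The remote bins (red) lie at 2.76 to 4.03 summits per Mb and have a median of 7 fragments each, and the bins of other peaks (grey) run from 122 to 5.59 summits per Mb.

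Remote peaks differed by their place on the chromosome. Remote peaks near stretches of over 1 Mb without any gene record had a higher median fold and lay in chains more often than those farther away. Within 1 Mb of such a stretch lay 283 remote peaks (7.90%), against 0.597% of other peaks and 1.59% of all autosomal peaks. The rule itself favours such places, because a summit deep inside a stretch without genes is remote by definition, so nothing is read from these shares. Human centromeres and the short arms of acrocentric chromosomes are known for long repeat arrays and few gene records. The peaks' own sequence was not read here, and no source used here states how reads that match several copies were placed, so the part of repeats in these peaks was not tested.

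The 283 remote peaks near gene-free stretches had a median fold of 6.11, 12 fragments and a background of 0.883 fragments. The 3298 farther remote peaks had a median fold of 4.76, 7 fragments and a background of 0.623 fragments. A fold of 10 or more was found in 75 of the 283 (26.5%, Wilson interval 21.7 to 31.9%) and in 59 of the 3298 (1.79%, 1.39 to 2.301%). Not all of the 283 were tall, since 72 (25.4%) rested on 7 fragments or fewer, against 57.6% of the 3298. The 136 other autosomal peaks within 1 Mb of such a stretch had a median fold of 5.41, and 9.56% of them had a fold of 10 or more. Inside the stretches themselves lay 137 remote peaks, with a median fold of 7.12 and 19 fragments. With the peaks near stretches left out on both sides, the ratio of remote to other median fold was 0.922. The median fold of the farther remote peaks was below that of other peaks on 21 of 22 autosomes.

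**Figure D2:**
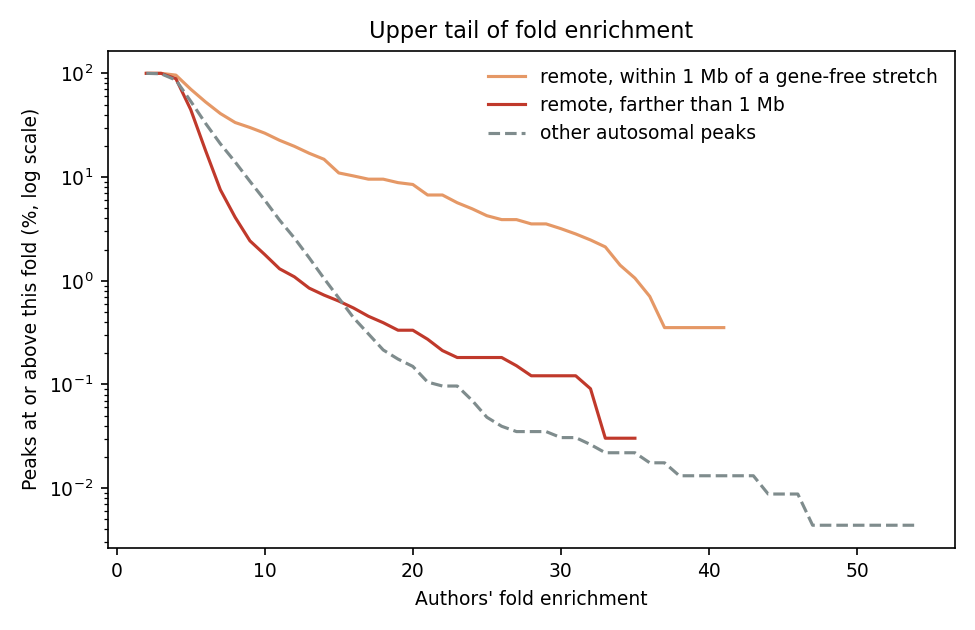
Percentage of peaks at or above each value of the authors' fold enrichment, on a log axis, for remote peaks within 1 Mb of a gene-free stretch (orange), remote peaks farther away (red) and other autosomal peaks (grey, dashed). At a fold of 10 the 3 lines stand at 26.5%, 1.79% and 5.99%.

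The strongest remote peaks came mostly from these stretches. Of the 10 highest folds 7 were within 1 Mb of a gene-free stretch, and of the 100 highest 60 were. The highest fold, 41.2 from 107 fragments (87.7 to 129), was on chromosome 10 from 38835649 to 38835827, between ZNF37A and ZNF33B. A neighbour at 38878860 had a fold of 33.7 from 97 fragments. The chromosome 12 peak from 35614828 to 35615142 reached a fold of 36.8 from 56 fragments. Chromosome 17 held folds of 35.0, 34.6 and 32.8 at 26782921, 26603684 and 21863159, all between KCNJ18 and WSB1. The peak with most fragments was on chromosome 3 from 93470361 to 93470798, with 577 fragments over a background of 16.1 and a fold of 33.8. All of these lay between genes.

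The next counts of fragments were also found near gene-free stretches. The peak on chromosome 1 at 125179984 had 337 fragments and a fold of 30.1. A pair on chromosome 5 at 49659795 and 49658350 had 227 and 219 fragments with folds of 13.6 and 13.1, over the same background of 15.8 fragments. The peak on chromosome 16 at 46390302 had 172 fragments and a fold of 31.1. Fold and fragments therefore ranked these peaks differently, because their backgrounds ranged from 4.55 to 16.1 fragments. The 5 farthest remote peaks lay on chromosomes 22 and 1, at 3719 to 4894 kb from the nearest protein-coding gene end, and their folds ran from 4.75 to 21.7.

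Strong peaks away from gene-free stretches included a pair at ribosomal RNA genes. The chromosome 21 peak from 8219953 to 8220288 reached a fold of 35.4 from 91 fragments, and its summit was 859 bp from the end of RNA45SN2, a ribosomal RNA gene. A second peak there, at 8443269, lay inside RNA45SN1 with a fold of 32.9 from 48 fragments. Ribosomal RNA genes are present in many near-identical copies, so the copy these fragments came from is uncertain. Chromosome 6 held a peak from 170146121 to 170146457, with a fold of 32.2 from 114 fragments, 136 kb from DLL1, which encodes a Notch ligand. On chromosome 4, chosen after its values were seen, a peak at 189233844 had a fold of 31.8 from 125 fragments, 707 kb from FRG1. Some other strong peaks of this kind lay only just past 1 Mb from a stretch. On chromosome 22, also chosen after values were seen, peaks at 16352755, 11703004 and 11814644 had folds of 27.9, 21.7 and 20.3. Their summits were 1088362, 1017438 and 1000981 bp from a stretch.

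By place in the annotation, 1820 remote summits (50.8%) lay between genes of any kind. A further 862 (24.1%) were inside protein-coding genes, 612 (17.1%) inside other genes and 287 (8.01%) within 1 kb of the end of a gene that is not protein-coding. Among all autosomal summits off protein-coding gene ends, 10.6% were at the end of another gene. Of the other peaks off protein-coding gene ends, 28.5% were between genes, 52.5% inside protein-coding genes and 7.70% inside other genes. Counted wherever they lay in a protein-coding gene, the shares were 25.5% of remote and 50.6% of all autosomal summits. The rule bars protein-coding genes of 200 kb or less from holding a remote summit, so nothing is read from the shares inside and between genes. Remote peaks at the ends of other genes had a median fold of 5.14 (4.88 to 5.33), against 4.75 (4.75 to 4.88) inside protein-coding genes and 4.91 (4.79 to 5.01) between genes, and the first and last of these intervals overlap. A fold of 10 or more was found in 100 of the 1820 peaks between genes (5.49%) and in 8 of the 862 inside protein-coding genes (0.928%), with 5.68% over all autosomal peaks. Within 1 Mb of a gene-free stretch lay 228 of the 1820 and 2 of the 862, so place in the annotation was not separated from nearness to such stretches.

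The 287 summits at gene ends comprised 173 at lncRNA genes, 82 at pseudogenes, 14 at transcribed pseudogenes and 6 at miRNA genes. The other 12 were at immunoglobulin gene segments and at small, ribosomal or other RNA genes. Beyond the ribosomal RNA gene and LOC101929614, which the chromosome 6 peak lies beside, the strongest were at FAM86EP, LOC101060104, DUX4L44 and DUX4L34, with folds of 18.9, 14.9, 14.9 and 13.2. These are pseudogenes, and FAM86 and DUX4-like sequences belong to families with similar copies, so their counts are uncertain. The next 4 were the lncRNA genes LINC01271, LINC01937, DLGAP1-AS6 and LOC105375743, the last with a fold of 9.12 from 16 fragments.

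Seen from the gene records, few of the remote ones outside the protein-coding class had a peak. Of 8896 remote records that are not protein-coding, 256 (2.88%) had an end with a summit no farther than 1 kb away. The share was 3.33% for 4509 lncRNA genes (Wilson interval 2.84 to 3.89%) and 2.19% for 3326 pseudogenes (1.75 to 2.75%). It was 9.29% for transcribed pseudogenes, 13 of 140, with a wide interval of 5.51 to 15.2%. Of 267 miRNA genes 7 had a summit at an end.

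At remote lncRNA genes the summits gathered at the start and not at the finish. Strand was known for 2759 lncRNA genes with both ends over 101 kb from protein-coding gene ends. A summit lay within 1 kb of the start of 71 of them (2.57%, Wilson interval 2.05 to 3.23%) and within 1 kb of the finish of 28 (1.01%, 0.703 to 1.46%). Within 250 bp the counts were 42 at the start (1.52%) and 6 at the finish (0.217%). Around genes over 3 kb long, 25 summits fell in the 500 bp before the start and 20 in the 500 bp after it, and the other 500 bp steps within 5 kb of the start held 2 to 11. Starts of lncRNA genes outside remote territory had a summit within 1 kb in 21.1% of 8183 genes, and protein-coding starts in 42.6% of 15101.

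**Figure D3:**
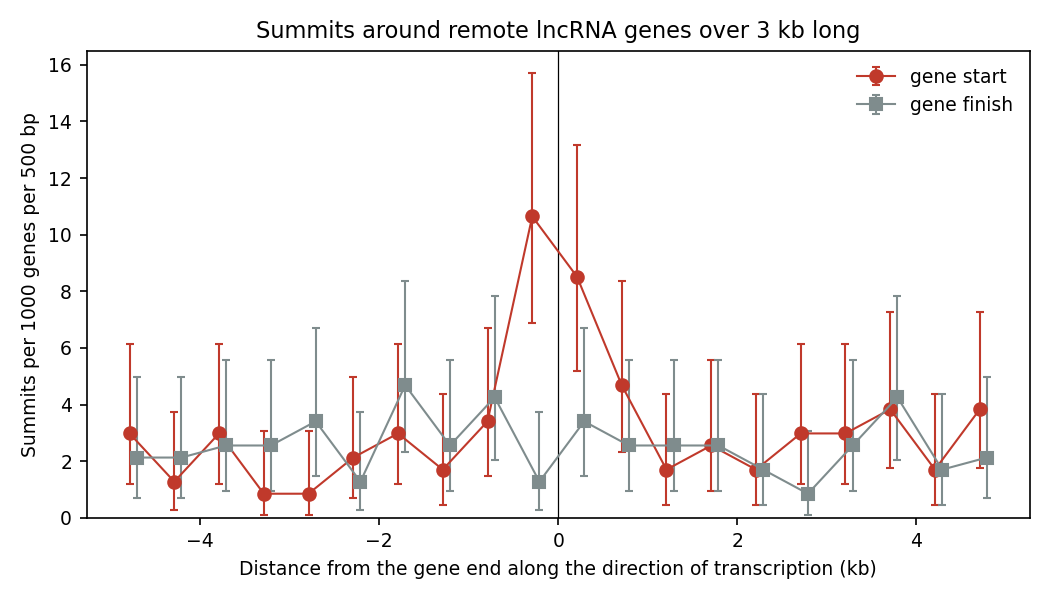
Summits per 1000 genes in steps of 500 bp around the start (red circles) and the finish (grey squares) of 2348 remote lncRNA genes over 3 kb long, by distance in kb along the direction of transcription, with exact Poisson 95% intervals. The starts reach 10.6 and 8.52 summits per 1000 genes in the steps either side of 0, and no step around the finish exceeds 4.68.

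The remote lncRNA promoters with a summit held more CpG than the remote ones without, at a level near that of promoters in general. In the 71 promoter windows with a summit within 1 kb of the start, the median GC content was 56.7% and the median number of CpG was 10. In the 2688 remote windows without a summit the medians were 42.3% GC and 2 CpG, and in all autosomal promoter windows they were 58.3% GC and 14 CpG. At least 10 CpG were present in 54.9% of windows with a summit, 9.26% of remote windows without, and 55.8% of all 26246 autosomal promoter windows. CpG-dense promoters are the class that is open in most cell types, and base composition can also change how well fragments amplify; neither was tested here.

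The letters of E-box and TCF/LEF sites were present in 52 and 2 of the 71 windows with a summit, shares between those of the remote windows without a summit and of all autosomal promoters. CANNTG was found in 73.2% of the 71 windows with a summit, 78.5% of the remote windows without and 68.9% of all autosomal promoters. CTTTGAT, letters of a TCF/LEF site searched on both strands, was found in 2.82%, 4.80% and 2.63% of the same groups. TGANTCA, letters of an AP-1 site on both strands, was found in 16.9%, 13.1% and 7.73%. These shares describe letters only, and windows of higher GC content hold other letters by composition.

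Remote density differed widely between chromosomes. It was highest on chromosome 7 with 7.45 summits per Mb of remote territory (6.76 to 8.20), followed by chromosomes 11 with 5.84, 22 with 5.76, 20 with 5.63 and 9 with 5.29. The intervals of chromosomes 11, 22, 20 and 9 overlapped each other. Those of chromosomes 22 (4.32 to 7.51) and 20 (4.64 to 6.77) also overlapped that of chromosome 7. It was lowest on chromosome 4 with 1.16 (0.945 to 1.40), and on chromosome 19 with 1.48, which rests on 5 summits. Chromosomes 7, 3, 2, 11 and 9 together held 1644 of the remote summits (45.9%), a count that is not adjusted for chromosome size. Chromosome 2 had 350 in 98.5 Mb of remote territory, or 3.55 per Mb, near the 3.42 of all remote territory. Of the autosomal summits on these 5 chromosomes 20.2, 22.2, 19.4, 14.8 and 15.4% were remote, against 13.6% over all autosomes. On chromosome 4, the lowest in density, 22.9% were. Remote density was below that of the rest of the same chromosome on 22 of 22 autosomes.

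Chromosomes dense in remote summits also had more local background. The median remote background was 0.716 fragments on chromosome 7, 0.795 on chromosome 22 and 0.721 on chromosome 20, against 0.604 on chromosome 4 and 0.486 on chromosome 13. Over 22 chromosomes remote density and remote background had a Spearman correlation of 0.69 and a Pearson correlation of 0.66. Remote and other density had a Spearman correlation of 0.49 and a Pearson correlation of 0.35. These points share a library and its depth, and the part of the background in the differences between chromosomes was not tested.

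**Figure D4:**
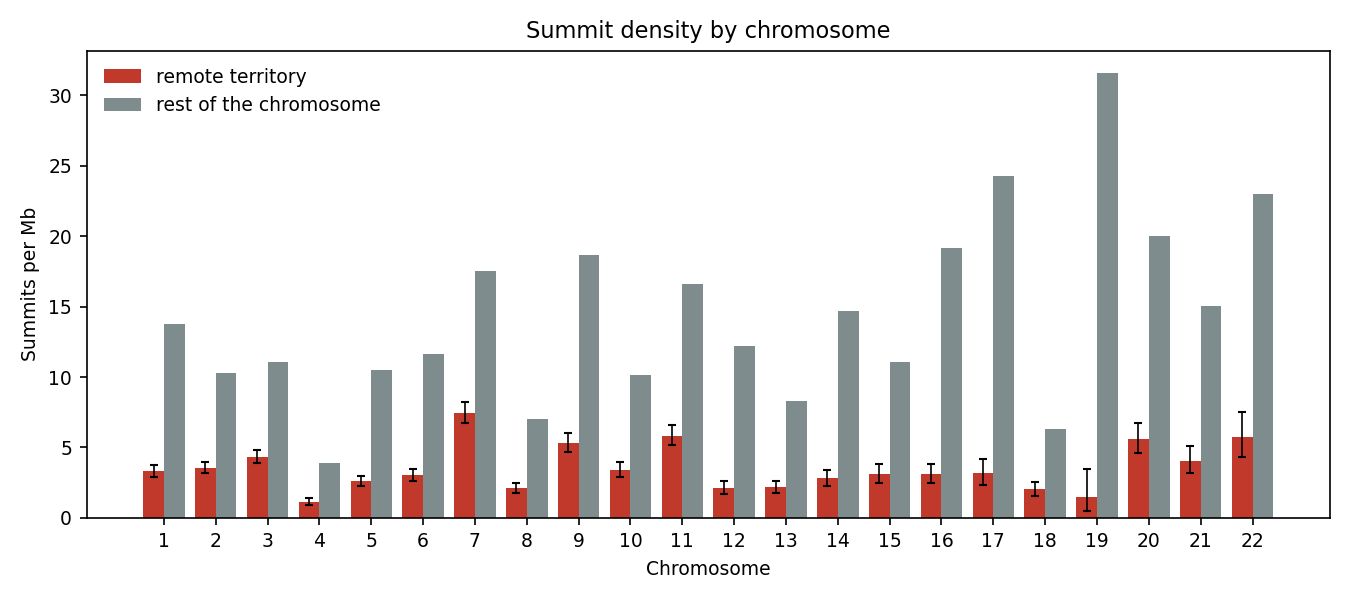
Summits per Mb in remote territory (red, with exact Poisson 95% intervals) and in the rest of each autosome (grey). The red bars run from 1.16 on chromosome 4 to 7.45 on chromosome 7, and each is below its grey neighbour.

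Within chromosomes the remote summits were concentrated in certain gaps between genes. Of the remote summits, 2668 lay between neighbouring protein-coding genes in 698 intervals. In 250 intervals there was a single one, while 53 intervals with 10 or more held 36.0% of them, and 41 of these 53 had no summit near a gene-free stretch. The largest number was 58, in the 3.45 Mb on chromosome 11 between IFTAP, an intraflagellar transport gene, and LRRC4C, which encodes a neuronal adhesion protein. Its folds ran from 3.64 to 8.07, its density was 17.8 per Mb of remote territory and its median background 1.01 fragments, above the remote median of 0.628. None of the 58 was strong, and 10 reached a −log10 q of 5.

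The next intervals were of both kinds. KCNJ18 to WSB1 held 43 summits and ZNF37A to ZNF33B held 38, all near gene-free stretches, with median folds of 7.74 and 6.28. COBL to POM121L12 on chromosome 7 held 34 in 1.72 Mb, or 22.4 per Mb, with folds of 3.49 to 7.31. NXPH1 to COXFA4, also on chromosome 7, held 34 with folds of 3.55 to 7.51. The interval from KLF4 to ACTL7B on chromosome 9, chosen after its values were seen, held 26 in 1.36 Mb, or 22.3 per Mb, with folds of 4.09 to 15.1 and a median background of 0.692 fragments.

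Chains held a smaller share of remote summits than of all autosomal summits. Chains of 3 or more, each within 10 kb of the next, numbered 89 and held 352 remote summits (9.83%), where 20% of all autosomal summits were in such chains. Remote chains were counted among remote summits alone, which are sparser at 3.42 per Mb against 13.4 closer to genes. Fewer chains can follow from that spacing, so nothing further is read from the smaller share. They held 51.6% of the remote summits near gene-free stretches and 6.25% of those farther away. Solitary summits, with no other remote summit within 10 kb, numbered 2689 (75.1%). The longest chain had 14 summits on chromosome 1 from 143213047 to 143264822, with folds of 5.55 to 29.8. The next had 11 on chromosome 10 from 41875371 to 41914715, 8 on chromosome 11 from 37195057 to 37225207, and 7 on chromosome 1 from 125174008 to 125184097. Chains of 6 included that on chromosome 17 from 26835865 to 26856268. Of these 5 chains only that on chromosome 11 lay away from gene-free stretches, between IFTAP and LRRC4C, and its folds ran from 4.34 to 5.71. Over all 23 chains of 5 or more, 7 lay away from such stretches. One of these 7, also of 6 summits and chosen after its values were seen, was on chromosome 21 from 8798232 to 8810392. Its folds ran from 4.07 to 18.3.

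A chain of 5 between KLF4 and ACTL7B, on chromosome 9 from 108543332 to 108562405, was chosen after its values were seen. Along the chromosome its folds were 11.3, 4.40, 10.7, 4.46 and 5.81, with 28, 11, 28, 11 and 8 fragments. The 2 tall summits had a weaker one between them and weaker ones after the second, and the nearest protein-coding gene end was ACTL7B at 292 to 311 kb.

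A remote summit was held by 405 protein-coding genes, where 1340 autosomal ones were over 200 kb long, as holding one requires. The 1340 are an upper bound, because ends of nested or neighbouring protein-coding genes can leave a long gene without a remote position. SDK1, a cell adhesion gene on chromosome 7, held 24 with folds of 3.65 to 6.32. DLG2, a synaptic scaffold gene on chromosome 11, held 17 with folds of 3.70 to 5.84, none of which reached a −log10 q of 5. PTPRN2 held 15, TENM4 held 11 and MYT1L, a neuronal transcription factor gene, held 10. The highest fold over these 5 genes was 8.74, in TENM4.

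Among records that RefSeq does not class as protein-coding, the immunoglobulin heavy chain locus IGH held 24 remote summits with folds of 3.44 to 8.78. RefSeq gives IGH and the kappa locus IGK the class other, so their summits could count as remote although both loci encode antibody chains. The kappa light chain locus IGK held 8 with a median fold of 7.73, a median of 43 fragments and a median background of 4.83 fragments. The lncRNA genes MGC4859, LOC105376214 and LOC124901810 held 10, 7 and 6. The highest count of fragments in the other 4 was 15. In IGK 5 of the 8 summits formed a chain of 40 to 131 fragments, and all 5 lay within 1 Mb of a gene-free stretch.

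Remote summits were nearest to 1282 of the 3487 protein-coding genes that border remote territory (36.8%). Of these 1282 genes 599 were nearest to a single summit and 189 to 5 or more. The highest number was 57, at IFTAP, followed by 37 at LOC101927345, 27 at WSB1 and 25 at SDK1, and by TENM4, TMEM121 and ZNF33B with 24 each. All 27 at WSB1 and all 24 at ZNF33B lay near gene-free stretches. For TMEM121 all 24 were those in IGH. Nearness is a position only, and which gene an enhancer acts on cannot be read from it.

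Around transcription factors of the squamous lineage, 10 of 15 bordering genes (66.7%, Wilson interval 41.7 to 84.8%) were nearest to a remote summit. Over all bordering genes the share was 36.8%, and the counts of the lists below stand beside the same share. It lay inside the Wilson interval of each list but this one, the Wnt list (5.24 to 36.0%) and very long genes (61.9 to 88.3%). Density around the squamous factors was 4.29 per Mb (2.92 to 6.09), with 3.42 over all remote territory. KLF4, a factor of squamous differentiation and stemness, was nearest to 9 summits from 148 to 674 kb away. Their folds along the chromosome were 4.87, 4.21, 15.1, 4.65, 4.66, 4.42, 5.51, 4.09 and 4.25. The single tall summit, at 107777102 on chromosome 9 and 287 kb from KLF4, had 24 fragments over a background of 0.658. TFAP2A was nearest to 4, with folds of 4.02 to 5.42. PITX1 was nearest to 3, and none was nearest to KLF5 or PAX9.

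Among basic helix-loop-helix factors and their ID inhibitors, 4 of 14 bordering genes were nearest to a summit, at 4.86 per Mb (2.66 to 8.15). ID4 had 5 with folds of 4.02, 4.74, 5.42, 4.07 and 7.71, at 299 to 626 kb. ID2 had 4 with folds of 3.79, 4.88, 4.68 and 6.41. TWIST2 had 4 within 118 to 163 kb, with folds of 9.85, 3.92, 12.4 and 4.41, the third of them at LINC01937, shown above. FERD3L had 1 with a fold of 6.20, and ATOH1 and HAND1 had none. The TWIST2 pair of 16 and 25 fragments was the tallest of this group.

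Stemness genes had a density of 4.52 per Mb (2.59 to 7.35), from 3 of 10 bordering genes. Besides KLF4 these were SOX2, with 3 summits of fold 4.90, 5.21 and 7.68, and MYC, the growth regulator and Wnt target, with 4 summits of fold 6.04, 4.997, 8.96 and 5.41 at 111 to 207 kb. CD24 and ITGA6 had none. MYC is also in the Wnt list, where 3 of 20 bordering genes were nearest to a summit and density was 1.62 per Mb (0.595 to 3.53). RSPO2, a secreted Wnt agonist, and TCF7L2 had 1 each, with folds of 5.42 and 4.43, and APC and AXIN2 had none.

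Genes of epithelial-mesenchymal transition had a density of 1.26 per Mb (0.508 to 2.60), below that of remote territory as a whole. Of their 7 bordering genes 3 (42.9%) were nearest to a summit, a share not below the 36.8% of all bordering genes. CDH11 and ZEB2 had 3 summits each and CDH2 had 1, and the ZEB2 folds were 6.78, 5.96 and 7.30. FN1 and ITGB1 had none. Head and neck cancer drivers had 5 summits in all from 2 of 6 bordering genes, 4 at MYC and 1 at FAT1, at 2.73 per Mb, and CCND1 and EGFR had none.

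Developmental factors of other lineages were near the overall density. Neural factors had 2.92 per Mb (2.01 to 4.10) from 10 of 20 bordering genes, and mesoderm and limb factors 3.03 per Mb (1.83 to 4.74) from 9 of 19. SOX11 was nearest to 10 summits, with a highest fold of 10.3 from 19 fragments at 718 kb and 3.60 to 5.53 at the others. POU3F3 had 6, ZIC1 5 and BCL11B 4, while BCL11A and EMX2 had none. SHOX2 had 6, MECOM and TBX20 3 each and FOXF1 2, while ALX1 and FOXC1 had none. Very long genes had 1.74 per Mb (1.42 to 2.10) although 28 of 36 were nearest to a summit. DLG2 had 17 summits, NAALADL2 14, LRP1B and PTPRT 7 each, and CSMD1 and FHIT none.

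**Figure D5:**
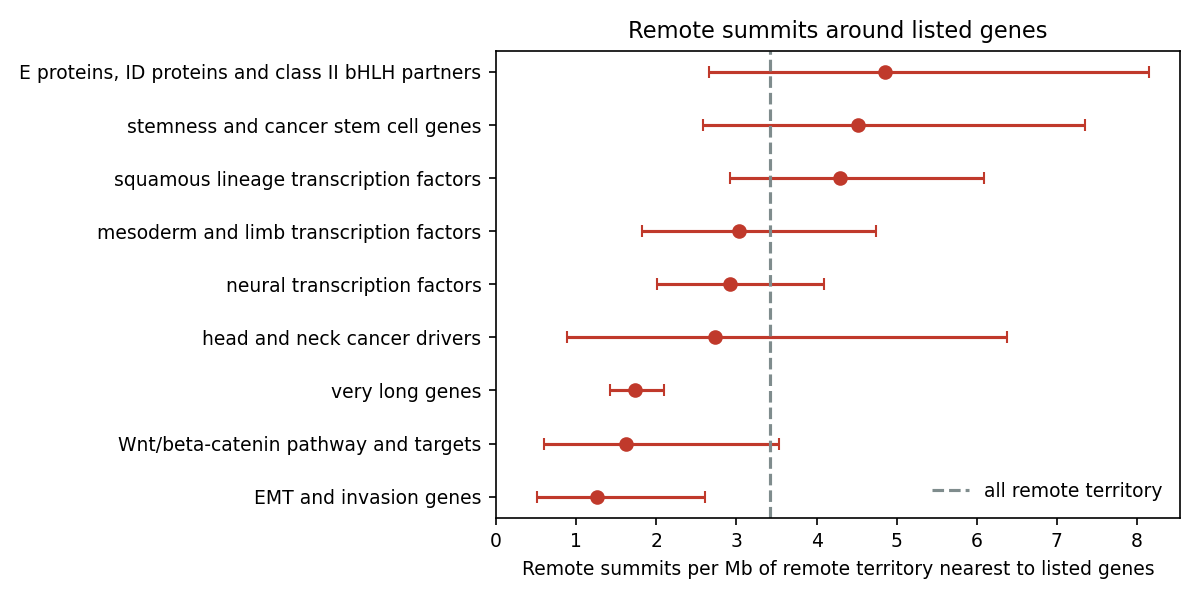
Remote summits per Mb of the remote territory nearest to the genes of each list, with exact Poisson 95% intervals, and the density of all remote territory, 3.42 per Mb (dashed line). The intervals of very long genes (1.42 to 2.10) and of epithelial-mesenchymal transition genes (0.508 to 2.60) lie below the line, and the other 7 include it.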

How the data were processed

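Per the submitters' processing notes, Bowtie2 2.3.5.1, SAMtools and MACS2 2.2.7.1 were used on hg38, with no settings stated. No source used here states whether the IgG library, which was not analysed here, was the control in peak calling. The authors deposited 1 narrowPeak list. In it the authors' fold enrichment is a ratio over the local background, the deposited −log10 p and −log10 q are the p-value and the q-value of the summit, and the score column, as deposited, is −log10 q times 10 with its decimals dropped. The lowest −log10 q was 1.30.

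From these values the fragments at each summit and the background were solved, with the p-value as a Poisson upper tail and the fold as fragments over background, each with 1 added. Every one of the 26642 peaks solved within 0.0001 of the −log10 p, and the step was tested on simulated data. The library's total is not stated in these sources.

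Gene records, 59679 in number with 20037 protein-coding, and promoter and miRNA sequences came from RefSeq on GRCh38.p14. Strand was taken from the promoter table, whose start equalled a gene end in 88.7% of genes. A gene end is a window of 1 kb. Remote territory, gene-free stretches over 1 Mb, chains and lists are defined where first used. Shares carry Wilson intervals, counts exact Poisson intervals and medians order-statistic intervals, all at 95%. No test was run, since each antibody has 1 library.

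Members, lists and alternatives were chosen with earlier results of these data known. Regions and genes were named by rank: the 10 highest folds, the 5 with most fragments, the 5 farthest, the 3 on each side of the threshold, the 5 top intervals, chains and genes, the 10 strongest at ends of other genes, and up to 4 members with and 2 without a summit in each list, except for a list member that is not reported here. Promoters were printed for the 5 highest folds, none on chromosome 8. Tools were pandas 2.3.3, SciPy 1.17.1 and NumPy 2.4.6 under Python 3.11.15, with Matplotlib 3.10.9 for plots.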

Additional observations from a re-analysis of the deposited data

How the results depend on the processing

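No ratio of medians or of densities changed to the other side of 1 under the alternatives tried. Reversal was not examined for the shares and the number of nearest genes, because the shares set beside them were not recomputed. Of the 50 alternatives 34 moved a value, as follows. The other 16 gave a change within the error of the reported value or, for a count, within 1.5 times. These include the number of nearest genes with distance counted to gene bodies, 950 against 1282, and the share with a fold of 10 or more, which a change of the other peaks cannot move. With peaks of −log10 q of at least 5 alone, the remote share of summits was 7.91% (5.61% at 10), the density ratio 0.127, the remote to other ratios of medians 0.985 for fold, 0.683 for width, 0.688 for fragments and 0.536 for background, the share at other gene ends 10.2%, the share inside long protein-coding genes 21.99%, the share in chains 15.1% and the number of nearest genes 491. At a distance of over 200 kb, the ratios were 0.957 for fold and 0.821 for width, the share inside long genes 16.4%, the share with a fold of 10 or more 4.80% and the number of nearest genes 699. Counting distance to gene bodies, so that summits inside long genes were left out, gave a remote share of 10.1% and a share with a fold of 10 or more of 4.69%. Without peaks within 1 Mb of gene-free stretches, the remote share was 12.7%, the fold ratio 0.922, the share inside long genes 27.6%, the share with a fold of 10 or more 1.79% and the share in chains 6.19%. Against other peaks off protein-coding gene ends, the ratios were 0.997 for fold, 0.913 for width, 0.778 for fragments and 0.627 for background. With 1 summit kept of those within 1 kb of each other, the remote share was 14.2%, the density ratio 0.269 and the share in chains 5.48%. Windows of 500 and 2000 bp at gene ends gave shares of 5.39% and 11.8%, and gaps of 5 and 20 kb gave 4.91% and 14.9% in chains. The fewer peaks and genes at stricter thresholds follow from their construction, and the cause of the other shifts was not tested. Depth limits single peaks, since 55.0% of remote peaks rest on 7 fragments or fewer. No paired analysis was possible because each antibody has 1 library, and only the TCF4 library was analysed here.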
